A study of Gallus gallus with 2 samples.

Results

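Neurofilament and growth cone cytoskeleton genes were examined in sorted cells of the chicken neural tube after knockdown of Sox4 and Sox11. The set holds 9 genes: the neurofilament genes NEFM and NEFL, the actin-associated genes FSCN1 and TAGLN3, the membrane protein genes GAP43 and BASP1, and CRMP1, DPYSL2 and DPYSL3 of the collapsin response mediator protein (CRMP) family. Every probe set whose gene symbol in the platform annotation is one of these names was taken, which gave 15 probe sets of 37693 chicken probe sets and 9 genes of 13008. The genes were proposed with the values of these same arrays in view, so the values below describe the arrays and nothing was tested.

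Expression was measured on an Affymetrix chicken array in a knockdown sample and a control sample, 1 array each. Knockdown cells carried pSuper-neo-GFP plasmids that express hairpin RNAs, one against Sox4 and one against Sox11, and control cells carried the pSuper-neo-GFP plasmid, for which the labels name no hairpin. All embryos were electroporated on both sides of the neural tube at Hamburger-Hamilton stage HH9, tissue was taken at HH11, and in both groups the GFP-positive fraction was sorted. Because the labels also state 2 days of incubation between these stages, which is hard to fit with them, the age of the cells is uncertain. No second hairpin, no rescue and no number of pooled embryos is given in the sources used here, and whether the sorted cells of the 2 samples held the same share of neurons was not measured. By the series' title, the question is which genes depend on SoxC factors, to which Sox4 and Sox11 belong, as neurons form in the spinal cord.

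Neurofilaments are intermediate filaments of neurons that fill the axon, and NEFL forms the core with which NEFM assembles. The growth cone is the motile tip of an extending axon. Its filopodia are actin bundles held together by fascin, the product of FSCN1, while GAP43 and BASP1 sit under its membrane, bind calmodulin and are substrates of protein kinase C. CRMP proteins bind tubulin and carry signals of semaphorins, which repel or guide axons.

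The hairpin targets were checked first, in units of the deposited MAS5 intensity, and their signals were lower in the knockdown. SOX4 was at 3157 in the knockdown and 6604 in the control (log2 ratio -1.06), and SOX11 at 2790 and 4552 (log2 ratio -0.71), while a further probe set of each lay below background on both arrays. Background, the 95th percentile of 687 viral probe sets, was 65.8 on the knockdown array and 63.6 on the control array, and 65.5% and 62.5% of chicken probe sets exceeded it. All 10 neural progenitor markers looked up were above the filter on low signal described next. SOX2 was at 2675 and 1581, and SOX3 at 14666 and 18551, in the knockdown and the control. Passing the filter cannot show the origin of the cells, since all 10 endothelium markers passed it too.

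The filter asked for a mean log2 signal over both arrays no lower than the median of chicken probe sets, equal to a signal of 118. It was passed by 9303 genes, called measured here, and by 8 of the 9 neurofilament and growth cone genes. Each gene is represented by its brightest probe set. On these probe sets, all 8 had lower signal on the knockdown array, with log2 ratios of knockdown over control between -1.75 and -0.26. Their median was -0.78, against a median of 0.02 over all measured genes. The other measured probe set of DPYSL3 was higher, at 1.06, and that of FSCN1 was at -0.21. On the brightest probe sets, 6 of the 8 genes were at least 1.5-fold lower and 1, FSCN1, at least 2-fold lower. Over all measured genes, 4452 of 9303 lay below 0, the share at least 1.5-fold lower was 5.71%, and 1.06% passed 2-fold. Since the genes were chosen from these arrays, their count is a description only. In RNA of a mixed cell sample, fewer neurons and less RNA per neuron cannot be told apart.

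**Figure D1:**
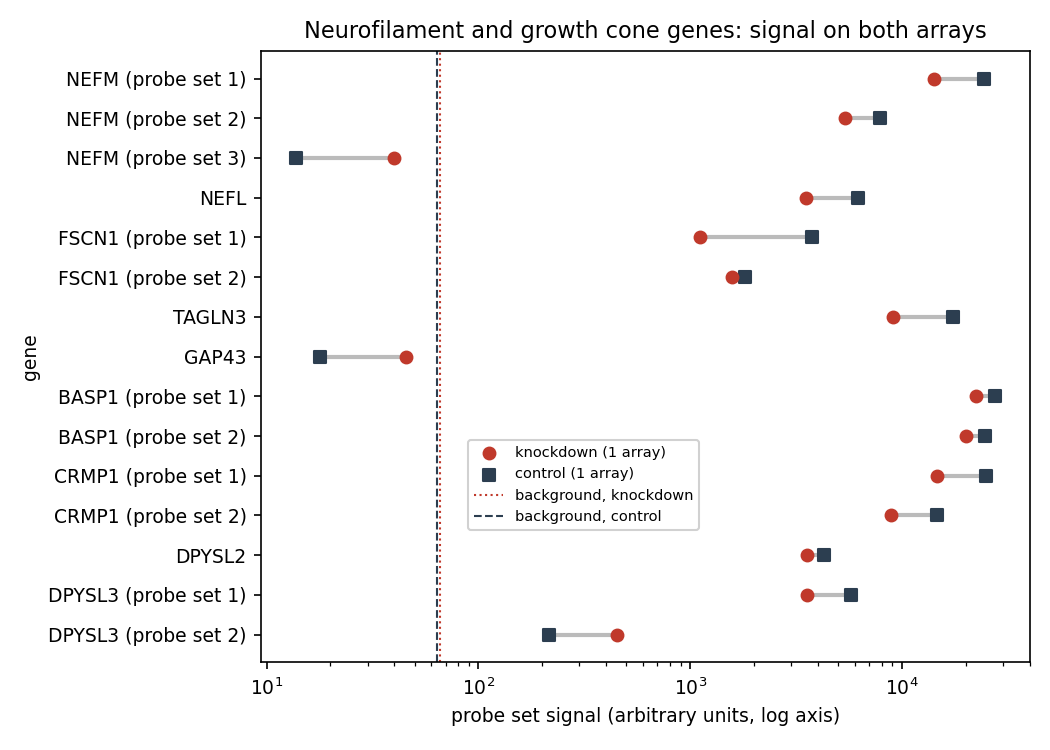
Signal of each of the 15 probe sets on the knockdown array (circles) and the control array (squares), on a log axis in arbitrary units, with the background of each array as a vertical line. Of the 13 probe sets that pass the filter, 12 lie lower on the knockdown array, and the dimmer DPYSL3 probe set lies higher there; the GAP43 probe set and the dimmest NEFM probe set lie left of the background lines.

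NEFM and NEFL, the neurofilament genes of the set, were lower by a similar amount. NEFM, the medium chain, had a signal of 14133 in the knockdown and 24344 in the control (log2 ratio -0.78, 1.72-fold lower). A different NEFM probe set gave 5391 in the knockdown and 7832 in the control (log2 ratio -0.54), so both measured NEFM probe sets were lower. The name of this dimmer one carries the suffix that Affymetrix gives to probe sets shared between transcripts. The remaining NEFM probe set, at 39.8 and 13.8, was below background on both arrays and gives no fold. NEFL, the light chain, is represented by 1 probe set, with 3506 in the knockdown and 6225 in the control (log2 ratio -0.83, 1.78-fold lower). NEFH, a further neurofilament gene outside the set, is named after its value was seen. It did not pass the filter but was above background on both arrays, and it was higher in the knockdown. Its signals were 147 in the knockdown and 90.6 in the control (log2 ratio 0.70). NEFL and NEFM are next to each other in the RefSeq gene table of the assembly GRCg7b. DOCK5, the nearest protein-coding gene on the NEFL side, had a log2 ratio of -0.20.

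FSCN1 had the lowest log2 ratio of the set, but its 2 probe sets gave different sizes. The brighter one had a signal of 1117 in the knockdown and 3757 in the control (log2 ratio -1.75, 3.36-fold lower), the 7th lowest log2 ratio of 9303 measured genes. The dimmer FSCN1 probe set had 1569 in the knockdown and 1814 in the control (log2 ratio -0.21). Both were lower on the knockdown array and well above background, and the size for FSCN1 depends on which is used. Among protein-coding genes of the same table, FSCN1 lies beside ACTB, the gene of cytoplasmic beta-actin, whose log2 ratio was -0.15, and beside RNF216 at -0.50.

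TAGLN3, a neuronal member of the transgelin and calponin family of actin-binding proteins, has 1 probe set. Its signal was 9100 in the knockdown and 17334 in the control (log2 ratio -0.93, 1.90-fold lower), the lowest of the set after FSCN1. The measured relatives of TAGLN3 did not share this size. TAGLN, a smooth muscle marker, was at 0.77, CNN2 at 0.55 and CNN3 at -0.29, with 0.96 on the other measured CNN3 probe set.

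The membrane protein genes showed a small difference for BASP1 and a signal below background for GAP43. BASP1, also named CAP-23, had signals of 22249 in the knockdown and 27392 in the control on the brighter probe set, and 20099 and 24751 on the other. Both gave a log2 ratio of -0.30, or 1.23-fold lower. GAP43 is represented by 1 probe set, at 45.7 in the knockdown and 17.8 in the control. Both values lie below background, so the array gives neither a fold nor a direction for GAP43.

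Of the CRMP genes, CRMP1 had 14533 in the knockdown and 25021 in the control (log2 ratio -0.78, 1.72-fold lower), and its second probe set 8865 and 14596 (log2 ratio -0.72). DPYSL2, which encodes the family member known as CRMP2, had 3557 in the knockdown and 4256 in the control on its single probe set (log2 ratio -0.26, 1.20-fold lower), the smallest size in the set. The 2 probe sets of DPYSL3, which encodes CRMP4, went in opposite directions. The brighter had 3561 in the knockdown and 5710 in the control (log2 ratio -0.68, 1.60-fold lower). The dimmer had 450 in the knockdown and 215 in the control (log2 ratio 1.06, 2.09-fold higher), and its name carries the suffix that Affymetrix gives to probe sets shared between transcripts. The direction for DPYSL3 is therefore not settled by these arrays.

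On the brightest or only probe set of each, the 8 measured genes lay in 3 ranges of log2 ratio. FSCN1 stood alone at -1.75 on its brighter probe set. TAGLN3, NEFL, NEFM, CRMP1 and DPYSL3 lay between -0.93 and -0.68, which are ranks 130 to 371 from the lowest of 9303. DPYSL3 is placed there by its brighter probe set only, the other being at 1.06. BASP1 and DPYSL2 were at -0.30 and -0.26, ranks 1629 and 1902, and stayed within 1.5-fold. The nearest genes on either side of the 1.5-fold size were DPYSL3 at 1.60-fold and BASP1 at 1.23-fold lower. With 1 array per group, no spread between replicates is known, and whether neighbours in this order differ was not tested.

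**Figure D2:**
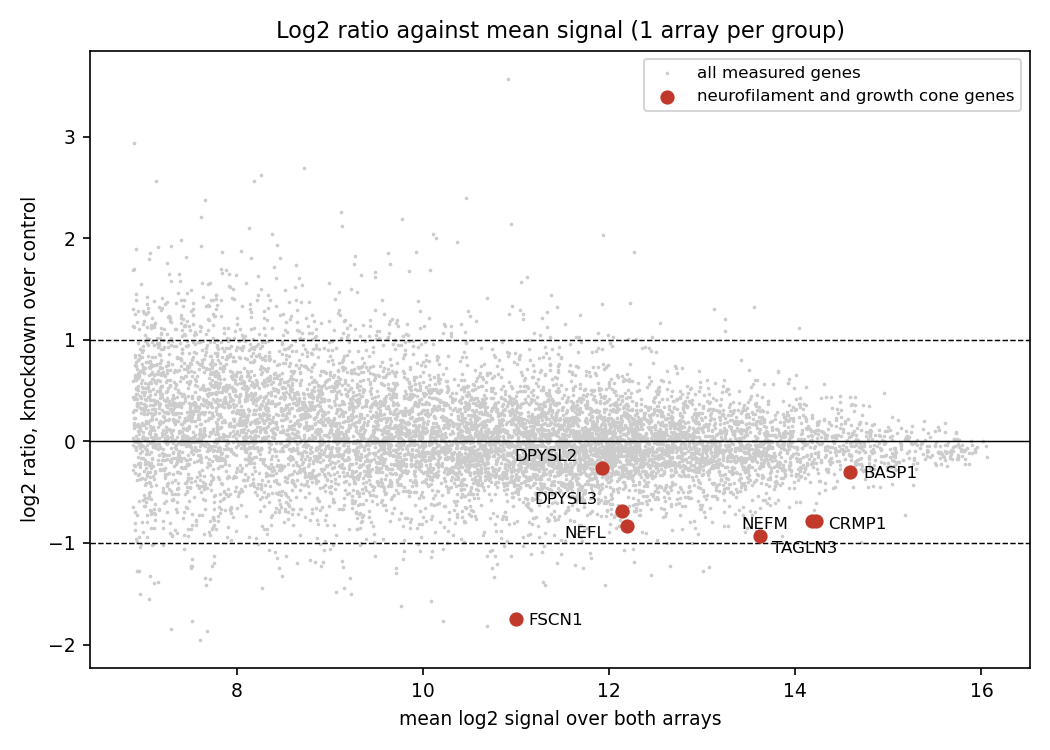
Log2 ratio of knockdown over control (vertical axis) against the mean log2 signal of both arrays (horizontal axis) for 9303 measured genes (grey) and the 8 measured neurofilament and growth cone genes (red), with dashed lines at 2-fold. Each gene is drawn at its brightest probe set. The red points lie below 0, FSCN1 at -1.75 below the dashed line, and the grey cloud is wider at low signal and narrower at high signal.

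The spread of log2 ratios over genes narrows with signal, so the genes were also set beside genes of like brightness. Measured genes were split into 10 equal groups by mean signal. In the brightest group (931 genes), the central 90% of log2 ratios ran from -0.44 to 0.36, the share at least 1.5-fold lower was 2.69%, and 0 genes passed 2-fold. TAGLN3, CRMP1 and the brightest NEFM probe set belong to this group and lay below that range, while BASP1, in the same group, lay inside it. The dimmer measured NEFM probe set, at -0.54, was not placed in a group. In the group that holds NEFL, DPYSL2 and DPYSL3, the range was -0.60 to 0.53. NEFL and the brighter DPYSL3 probe set lay below it and DPYSL2 inside. In the group of FSCN1, the range was -0.63 to 0.65, and the brighter FSCN1 probe set lay below it.

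How far probe sets of a gene agree was described over the 3853 genes with several measured probe sets. The median difference in log2 ratio between the highest and the lowest probe set of a gene was 0.53. It was 0.00026 for BASP1, 0.06 for CRMP1 and 0.25 for NEFM, all under that median. It was 1.54 for FSCN1 and 1.74 for DPYSL3, sizes reached by 4.80% and 2.65% of these genes. These 5 genes have 2 measured probe sets each, while some of the 3853 have more, such as RTN4 with 5. The difference can grow with the number of probe sets, and the median and shares were not matched for it. In 4 of the 5 neurofilament and growth cone genes with several measured probe sets, BASP1 excepted, the dimmest had the higher log2 ratio. The same held for 70.4% of the 3853 genes. Probe sets of a gene share the same RNA and are not replicates.

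A measure of the labelled RNA differed between the arrays beside these values. The ratio of 3' to 5' signal was 1.85 in the knockdown and 5.45 in the control for the actin control transcript, 1.505 and 2.92 for EF1A, and 1.05 and 1.25 for GAPDH. Where the probe sets of NEFM, FSCN1 and DPYSL3 lie along their transcripts was not analysed here, and the part of this difference in their values was not tested.

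Related genes were described in 9 lists by role, with the neurofilament and growth cone genes left out. Of 100 measured genes in these lists, 13 were at least 1.5-fold lower, of which 1 passed 2-fold, and 9 were at least 1.5-fold higher, of which 6 passed 2-fold. Their median log2 ratio was -0.11. Over all measured genes, 5.71% were at least 1.5-fold lower, and 1.06% passed 2-fold on that side. The share at least 1.5-fold higher was 11.4%, and 3.64% passed 2-fold.

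Other growth cone genes were mostly lower, with 22 of 25 measured genes below 0 and a median log2 ratio of -0.26. Over all measured genes, 4452 of 9303 lay below 0. Most of the 22 that have another measured probe set had one above 0, CAP1 (0.89), GPM6B (0.70) and KIF2A (0.69) among them. Others, such as GPM6A (-0.25 and -0.35) and MAPRE1 (-0.31), did not. A 1.5-fold lower signal was reached by 6 of the 25, against 5.71% of all measured genes, and a 1.5-fold higher one by 1, against 11.4%. RTN1, a reticulon of the endoplasmic reticulum of neurons, had signals of 5342 in the knockdown and 10712 in the control (log2 ratio -1.004), and its other measured probe sets gave -0.90 and -1.02. TUBB3, the neuronal beta-tubulin, had 634 in the knockdown and 1240 in the control (log2 ratio -0.97). The names of this TUBB3 probe set and of the brightest RTN1 one carry the Affymetrix suffix for probes that may also match other transcripts. STMN2, a tubulin-binding protein of growth cones, was at -0.74, with -0.47 on a second probe set. GNAO1, the alpha subunit of a G protein abundant in growth cones, was at -0.86, but its other probe set gave 0.52.

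Other intermediate filament genes did not share the values of NEFM and NEFL. None of the 6 measured was 1.5-fold lower, against 5.71% of all measured genes. On the higher side 2 passed 2-fold, against 3.64%. The 2 were SYNM, which encodes synemin (428 in the knockdown and 137 in the control, log2 ratio 1.65), and DES, the muscle filament desmin (351 and 138, log2 ratio 1.34). NES, the progenitor filament nestin, was at -0.39, and the lamin gene LMNB2 at -0.51. Neither passed 1.5-fold.

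Among actin genes, the general machinery had a median near 0. The median log2 ratio of 32 measured genes of actin assembly and turnover was -0.07, with 4 genes past 1.5-fold on the lower side and 2 on the higher side. Over all measured genes, the shares past 1.5-fold were 5.71% lower and 11.4% higher. WASL, an activator of actin branching, was at -0.90, though its other probe sets gave -0.11 and -0.26. TMOD2, a tropomodulin of neurons that caps filament ends, was at -0.74. The capping protein gene CAPZA1 was at -0.73, with -0.33 on its other measured probe set. WASF1, named after its value was seen, was the remaining lower gene at -0.71. ABLIM3, an actin-binding LIM protein, was higher at 1.26, with 185 in the knockdown and 77.3 in the control, and ARPC2, also named after its value was seen, at 0.62.

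Genes that bundle or crosslink actin, the role of FSCN1, had a median of -0.08 over 8 measured genes. Only VIL1, which encodes villin, passed 1.5-fold lower in that list (132 in the knockdown and 224 in the control, log2 ratio -0.76). In the same list, 0 were at least 1.5-fold higher. The shares over all measured genes were 5.71% lower and 11.4% higher. ACTB and ACTG1, the cytoplasmic actins, were at -0.15 and -0.19. The striated muscle actins ACTC1 and ACTA1 were higher, at 3.57 and 2.01, and the median over these 4 measured actin genes was 0.93.

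Membrane-bound substrates of protein kinase C and calmodulin-linked genes, the group of BASP1, had a median of -0.09 over 8 measured genes. On their brightest probe sets, all 8 stayed within 1.5-fold. So did most measured genes, as 5.71% of all passed that size on the lower side and 11.4% on the higher side. MARCKS and MARCKSL1, which like BASP1 bind the inner membrane, were at -0.22 and -0.19. The other measured probe sets of MARCKS gave 0.24, 0.17 and -0.095. PRKCB, a protein kinase C, was at -0.37 with 0.47 and 1.45 on its other probe sets, and the calmodulin gene CALM2 was at 0.21. Relatives of the CRMP family and a few actin regulators listed with them had a median of -0.28 over 4 measured genes. DPYSL4, a further CRMP gene, had 3402 in the knockdown and 5499 in the control (log2 ratio -0.69), and its other measured probe set gave 0.47, the same disagreement in direction as in DPYSL3. FAM49B was at -0.38.

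Genes of semaphorin signalling, upstream of the CRMP proteins, showed no common direction, with 4 of 10 measured genes below 0 and 6 above, and a median of 0.17. PLXNA4, a receptor subunit for class 3 semaphorins, had 482 in the knockdown and 936 in the control (log2 ratio -0.96), with -1.19 on its other probe set. NRCAM, an adhesion molecule of axons, was at 1.29 with 0.17 on its other probe set, and the ligand genes SEMA3D and SEMA3C were at 0.57 and 0.41.

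**Figure D3:**
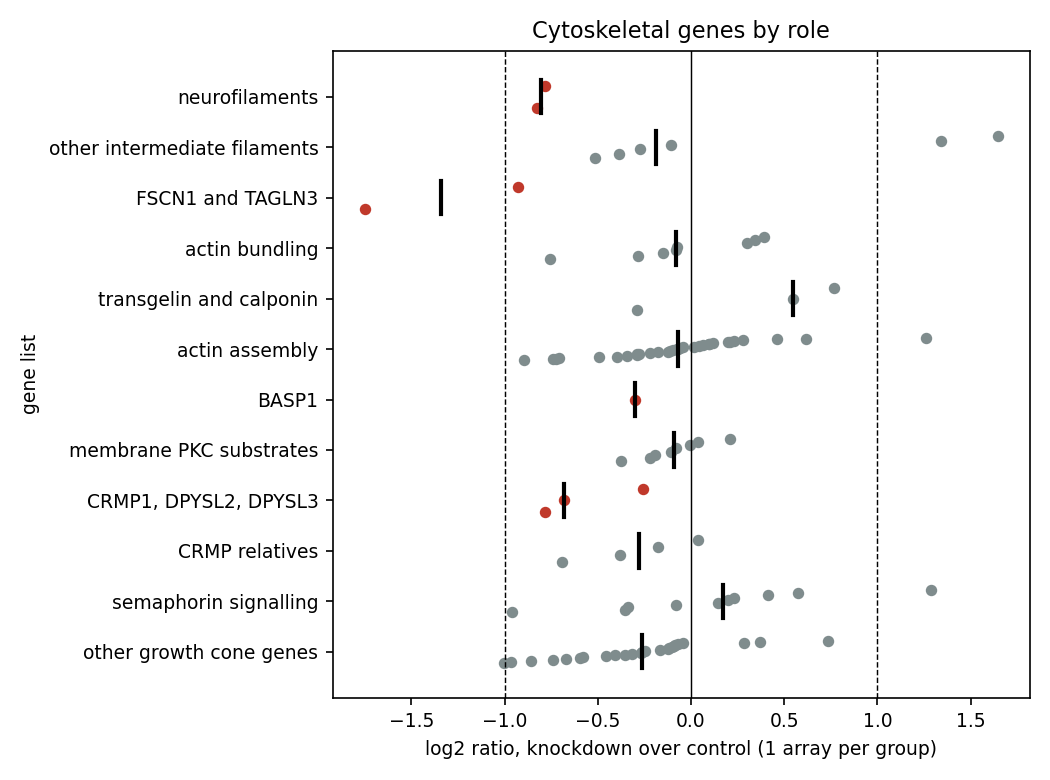
Log2 ratio of knockdown over control for measured genes of the lists by role, actin isoforms not drawn, 1 point a gene, with the list's median as a black bar and dashed lines at 2-fold. Each gene is drawn at its brightest probe set. On these, neurofilament and growth cone genes (red) lie at -0.26 or below, and the medians of the related lists drawn (grey) lie between -0.28 and 0.55.

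Genes with the most similar pair of signals were sought for 3 genes, as the smallest distance in log2 signal over the 2 arrays. Each gene was taken at its brightest probe set. The nearest to NEFM was CRMP1, at a distance of 0.06, followed by IREB2 at 0.08 and RPL22L1 at 0.14. The nearest to TAGLN3 were BCL7A at 0.07, LRP11 at 0.09 and CAPZA1 at 0.19. No measured gene lay within 0.25 of the brighter FSCN1 probe set, and the nearest were PROX1, NUDT14 and HOXC9, each at 0.45. The dimmer FSCN1 probe set, at 1569 in the knockdown and 1814 in the control, was not used for this. With 2 arrays such a likeness fixes no pattern.

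Lists of neuron, neural crest and progenitor markers each held measured genes on both sides of 0. Those below and above 0 numbered 5 and 3 for neurons, 5 and 3 for neural crest, and 8 and 2 for progenitors. Signals summed over the matched genes of a list were 3983 in the knockdown and 6964 in the control for 11 markers of spinal and sensory neuron types, of which 8 were measured, 3 were at least 1.5-fold lower and 0 higher. ISL1, a motor and sensory neuron factor, was at -1.41 in that list, and without it the sums were 2422 and 2803. CHAT (-0.85), LHX1 (-0.74), LHX9 (-0.33) and ISL2 (-0.29) also lay below 0. LHX3, MNX1 and NTRK3 lay above 0, at 0.24, 0.09 and 0.26. ISL2 and these 3 genes above 0 are named after their values were seen. Sums were 10527 and 12467 for 8 neural crest markers, of which 1 was at least 1.5-fold lower and 2 higher. For 10 progenitor markers they were 170010 and 188176, with 1 at least 1.5-fold lower and 1 higher. The shares of all measured genes past 1.5-fold were 5.71% lower and 11.4% higher.

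Lists of blood, endothelium, muscle and heart, surface ectoderm and notochord markers each had higher summed signals on the knockdown array, though not every gene was higher. Summed signals were 72088 in the knockdown and 31192 in the control for blood (9 matched, 6 of 7 measured genes at least 1.5-fold higher), and 4253 and 2426 for endothelium (10 matched, 6 of 10 higher). They were 36901 and 18311 for muscle and heart (14 matched, 11 of 13 higher), and 7063 and 4881 for surface ectoderm (7 matched, 2 of 5 higher). For notochord they were 3243 and 2453 (6 matched, 2 of 5 higher). No measured gene of these 5 lists was at least 1.5-fold lower. CLDN4 (-0.47), CHRD (-0.44), MYOD1 (-0.36) and FOXA2 (-0.18) lay below 0, MYOD1 and FOXA2 being named after their values were seen. None was listed at 0, and NKX2-5, ESRP1 and FOXA1 were below background on both arrays. DES, ACTC1 and ACTA1 are also muscle markers. Which cells gave the signals of these lists was not tested, nor was the part of such cells in the values of the neurofilament and growth cone genes.

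**Figure D4:**
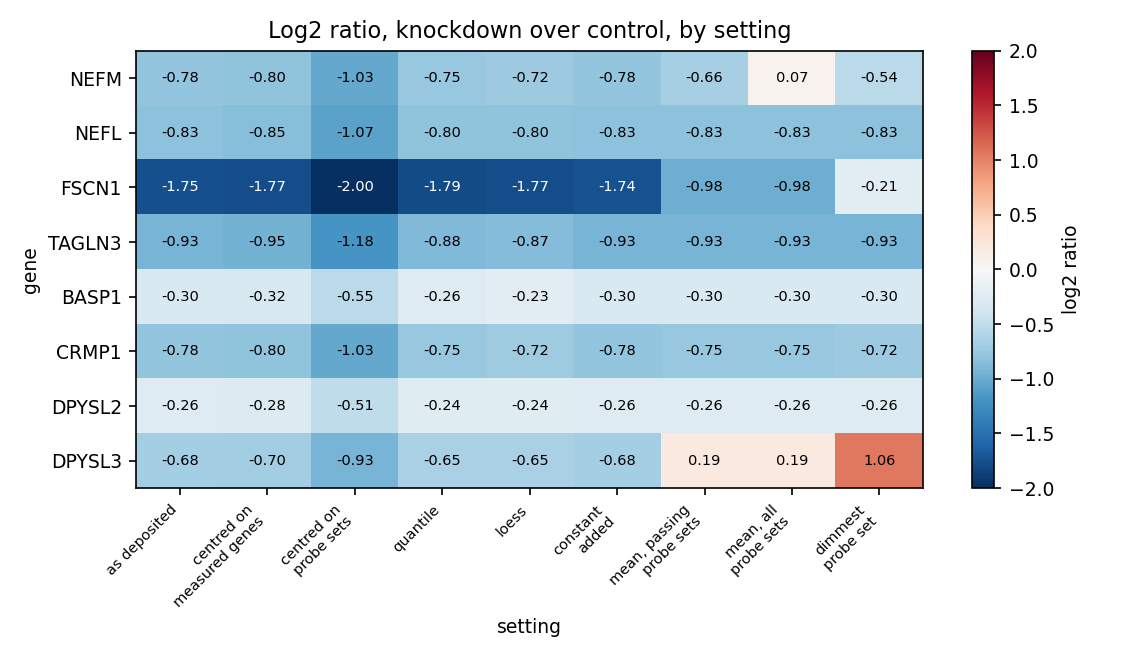
Log2 ratio of knockdown over control of the 8 measured genes (rows) with the signals as deposited and under 8 other scalings or choices of probe set (columns), as numbers and colour. NEFL, TAGLN3, BASP1, CRMP1, DPYSL2 and FSCN1 are below 0 in every column drawn, while DPYSL3 is above 0 in 3 columns and NEFM, at 0.07, in 1.

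The choice of probe set changed FSCN1 and DPYSL3 by more than any scaling did. For NEFM this held only with the mean over all probe sets. Median centring over chicken probe sets moved BASP1 and CRMP1 by more than the choice of probe set did. NEFL, TAGLN3 and DPYSL2 have 1 probe set each, so no choice of probe set could move them. With the dimmest measured probe set of each gene, a choice made after seeing the data, 3 of the 8 genes were at least 1.5-fold lower, namely TAGLN3, NEFL and CRMP1, and the median log2 ratio was -0.42. With the mean over all probe sets, NEFM was at 0.07, a mean that includes its probe set below background. The median without FSCN1 and DPYSL3, whose probe sets disagree, was -0.78, with 4 of 6 genes at least 1.5-fold lower.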

How the data were processed

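The authors deposited linear probe set intensities, for which the submitters' processing notes name MAS5 5.0. With 2% of probe sets trimmed at each end, the mean was 999.6 in the knockdown and 999.5 in the control, so the arrays share a scale by trimmed mean. Detection calls were not used here. Log2 was taken once, and the log2 ratio is knockdown over control. Symbols came from the platform annotation, updated by Entrez number with RefSeq's GRCg7b table: 27166 chicken probe sets had 1 symbol, 177 several and 10350 none. A gene is represented by its brightest probe set by mean log2 signal. Suffixes of probe set names are given for some genes only. The probe sets used for WASL and WASF1, among others, also carry the suffix for sharing between transcripts. With 1 array per group, no test was made, no p-value is given, and the number of arrays limits every value. The genes and lists were chosen with earlier results of these data known. The rule for named genes was, in each related list, up to 4 measured genes with the largest log2 ratio in size, of which those most useful are given; others are marked as named after their values were seen. Genes of the lists not matched by symbol, INA and PRPH among them, were not analysed here, 1 list is not reported here, and no promoter or protein sequence was used here. The computation, in Python 3.11.15, was tested on simulated data.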

Additional observations from a re-analysis of the deposited data

How the results depend on the processing

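No paired analysis was possible because each group has 1 array. Median centring over chicken probe sets shifted the median measured gene by -0.25, gave a median of -1.03 over the 8 genes and put 5 at least 2-fold lower. It turned the split of all genes past 2-fold to 62.4% lower and 37.6% higher, against 22.6% and 77.4% as deposited; with quantile normalization this split was 44.4% and 55.6%, and with loess centring 42.4% and 57.6%. The median over the 8 genes was -0.72 with loess centring, -0.71 with the mean over probe sets that pass the filter, -0.53 with the mean over all probe sets and -0.42 with the dimmest measured probe set. Under the last 3, and without FSCN1 and DPYSL3, 0 genes were at least 2-fold lower. The count at least 1.5-fold lower was 5 with the mean over probe sets that pass the filter. It was 4 with the mean over all probe sets and 3 with the dimmest probe set. DPYSL3 was above 0 at 0.19 with either mean and at 1.06 with the dimmest probe set, and NEFM at 0.068 with the mean over all probe sets. Of the 12 alternatives, 3 were added after the data were seen. Quantile normalization, a floor at background, a constant added to both signals, the other filters and centring on the median measured gene left the counts at 1 and 6. Signal over background limits GAP43, which lay below background on both arrays.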
